A study of Mus musculus with 20 samples.

Results

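The genes described here are the core of the transforming growth factor beta (TGF-beta) system: the ligands Tgfb1, Tgfb2 and Tgfb3, the receptors Tgfbr1, Tgfbr2 and Tgfbr3, and the latent TGF-beta binding proteins Ltbp1, Ltbp2, Ltbp3 and Ltbp4. They were chosen by symbol, and all 10 of the 10 were found among the 24347 genes of the 12 RNA tables. All 10 were also among the 12938 genes with at least 1 FPKM in at least 3 of the 12 libraries, the genes that were tested. FPKM is a fragment count divided by transcript length and by the size of the library. Comparisons of FPKM between libraries can still carry differences in their RNA make-up.

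The RNA came from sorted stromal cells of the bone marrow of C57BL/6 mice, in 4 groups of 3 libraries. CAR cells, the reticular cells rich in Cxcl12, were sorted as CD45-CD31-Lin-PDGFRα+Sca1- cells, and PaS cells, a more progenitor-like mesenchymal population, as CD45-CD31-Lin-PDGFRα+Sca1+ cells. The groups were CAR ko and PaS ko, both Ebf1fl/fl;Prx1+/cre, and CAR wt and PaS wt, both Ebf1+/+;Prx1+/cre, so every library came from mice that carry the Cre. Prx1-Cre is driven by regulatory sequence of the limb mesenchyme gene Prrx1, and femora and tibiae were the bones digested. Ages, and whether a library is 1 animal or a pool, are not given in the sources used here. The series also lists 8 ATAC-seq samples of the same populations, which were not analysed here.

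As background, TGF-beta is secreted in a latent form, in which the mature dimer stays wrapped in its own propeptide. The propeptide is tied by disulfide bonds to a latent binding protein, which in turn attaches the complex to fibrillin and fibronectin fibres of the matrix. Integrins, proteases and thrombospondin release the ligand, which is then bound by Tgfbr2, the constitutively active type II receptor kinase. Tgfbr2 phosphorylates Tgfbr1, the type I kinase, and Tgfbr1 passes the signal to Smad2 and Smad3. Tgfbr3, or betaglycan, is a coreceptor without a kinase that presents ligand and is most needed for Tgfb2. In bone marrow and bone, TGF-beta is known for keeping hematopoietic stem cells quiescent, for recruiting mesenchymal progenitors to bone surfaces, and for driving matrix production.

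The ligand genes lie on chr7:25687002-25705077 (Tgfb1), chr1:186622787-186709697 (Tgfb2) and chr12:86056743-86079041 (Tgfb3), in RefSeq's annotation of GRCm38.p6, the assembly that mm10 names. The receptor genes lie on chr4:47353222-47414926 (Tgfbr1), chr9:116087695-116175363 (Tgfbr2) and chr5:107106567-107289629 (Tgfbr3). The binder genes lie on chr17:75005480-75392512 (Ltbp1), chr12:84783212-84876558 (Ltbp2), chr19:5740900-5758536 (Ltbp3) and chr7:27305140-27339720 (Ltbp4). Ltbp2 and Tgfb3 are 1.18 Mb apart, and Tgfb1 and Ltbp4 are 1.60 Mb apart.

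Promoter sequence from RefSeq on this build was matched for 8 of the 10 genes, in 12 windows of 250 bases before a transcription start; Tgfb3 and Tgfbr3 were not among the matches. The windows were searched on both strands for the palindrome bound by Ebf1, for its inner part CCCNNGGG (the palindrome adds a T before and an A after), for GTCTAGAC (a Smad palindrome), TATAAA (the TATA box) and GGGCGG (a GC box). The full Ebf1 palindrome was in 0 of the 12 windows and in 0.779% of 32851 windows of all genes, and the Smad palindrome in 0 of the 12 and in 0.167% of all. The inner Ebf1 part, which every full palindrome also holds, was in 5 of the 12 windows and in 11.8% of all. These 5 are the Tgfb1 window, both Tgfbr1 windows and 2 overlapping Ltbp4 windows that hold a single match between them. They belong to 3 genes. Their G and C content is 75.2% (Tgfb1), 74.8% and 52.8% (Tgfbr1) and 79.2% (both Ltbp4 windows). The share of all windows was not matched for G and C content, so the 2 shares are not like for like. A TATA box was in 1 of the 12 and in 12.4% of all, and a GC box, which can overlap the inner Ebf1 part, in 6 of the 12 and in 32.7% of all. Windows of 3 genes that the results below turn on are shown, since Ltbp4 and Tgfb2 differed most between the cell populations and Tgfbr1 had the largest rise in CAR ko cells among the receptors. Capitals mark every match other than GC boxes. Of the 3 Ltbp4 windows, all on the minus strand, 2 are printed: chr7:27337613-27337862 (window a), with no match in capitals, and chr7:27333664-27333913 (window b), with the inner Ebf1 part 29 bases before the start. The other, chr7:27333649-27333898, overlaps window b and holds the same match, 44 bases before its own start. The Tgfb2 window, chr1:186705990-186706239 on the minus strand, has the TATA box 31 bases before the start. Of the 2 Tgfbr1 windows, both on the plus strand, chr4:47352972-47353221 is printed and has the inner Ebf1 part 138 bases before the start, and chr4:47385966-47386215 has it 132 bases before the start. The Tgfb2 window, all 3 Ltbp4 windows, chr4:47385966-47386215 (Tgfbr1) and chr17:75178531-75178780 (Ltbp1) lie inside the annotated span of their gene. Their starts are therefore not the outermost start of that gene. A match is a run of letters and not a measured binding site.
Ltbp4 window a: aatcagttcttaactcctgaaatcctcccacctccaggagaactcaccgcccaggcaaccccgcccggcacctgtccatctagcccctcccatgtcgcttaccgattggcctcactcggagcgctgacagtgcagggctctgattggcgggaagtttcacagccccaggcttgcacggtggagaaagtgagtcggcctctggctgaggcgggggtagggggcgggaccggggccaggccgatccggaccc
Ltbp4 window b: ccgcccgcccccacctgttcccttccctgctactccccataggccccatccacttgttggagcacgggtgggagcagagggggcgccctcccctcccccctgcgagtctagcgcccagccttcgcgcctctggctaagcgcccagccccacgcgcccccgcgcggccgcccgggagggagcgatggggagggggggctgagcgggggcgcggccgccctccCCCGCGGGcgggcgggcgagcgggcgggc
Tgfb2: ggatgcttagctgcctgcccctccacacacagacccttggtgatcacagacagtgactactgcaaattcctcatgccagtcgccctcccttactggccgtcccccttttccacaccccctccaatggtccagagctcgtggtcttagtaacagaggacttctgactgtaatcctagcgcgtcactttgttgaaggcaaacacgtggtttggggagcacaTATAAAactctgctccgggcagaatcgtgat
Tgfbr1: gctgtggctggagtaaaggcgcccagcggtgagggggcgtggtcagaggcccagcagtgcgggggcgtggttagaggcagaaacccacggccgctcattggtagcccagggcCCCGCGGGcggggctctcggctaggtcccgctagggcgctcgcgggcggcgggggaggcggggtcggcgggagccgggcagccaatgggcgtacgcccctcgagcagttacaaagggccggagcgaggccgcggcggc

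Summed values were 491801 to 526074 FPKM per library, with 11863 to 12295 genes at 1 FPKM or more, and the read depth is unknown. PaS wt replicate 1 listed 24.6% of all genes at 0, fewer than the 33.3% to 37.0% of the other libraries. Ebf1, the targeted gene, averaged 57.5 ± 1.99 FPKM in CAR ko and 48.1 ± 1.10 FPKM in CAR wt cells, and 62.5 ± 2.18 FPKM in PaS ko and 55.9 ± 5.89 FPKM in PaS wt cells (SD, n = 3 each). It was not lower in ko libraries, and in CAR ko cells it passed the test as higher, by 0.25 on the log2 scale (SE 0.08, adjusted p = 0.040). That call ended without filter, under quantile normalization and without 7 of the 12 libraries in turn, with adjusted p of 0.018 to 0.13. A value over the whole gene still counts exons that a deletion leaves in place, so it is no check on the labels, and the groups are named as labelled. The 7 CAR markers (Cxcl12, Lepr, Adipoq and others) summed to 14844 to 17128 FPKM in CAR ko, 15756 to 16546 in CAR wt, 5054 to 5813 in PaS ko and 5173 to 5328 in PaS wt libraries. The 8 PaS markers (Ly6a, which encodes Sca1, Cd34, Pi16 and others) summed to 91.6 to 98.0 FPKM in CAR ko, 86.1 to 86.9 in CAR wt, 3450 to 3700 in PaS ko and 4234 to 4937 in PaS wt libraries. Of the 7 CAR markers 6 were higher and 1 lower in CAR wt than in PaS wt cells. Of all tested genes 20.5% were higher and 22.7% lower in that comparison. The lower CAR marker was Pdgfra, at 57.9 FPKM in CAR wt and 142 FPKM in PaS wt cells. Cxcl12 dominated the CAR marker sum, at 13251 FPKM on average in CAR wt cells. All 8 PaS markers, which include Pdgfra, were lower in CAR wt cells. Ly6a and Pdgfra encode proteins of the sort gates, so they are no separate check. Apart from Pdgfra in CAR cells, the markers were higher in the population they name.

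In CAR ko cells the ligand Tgfb3, both signalling receptors and the binder Ltbp4 were higher than in CAR wt cells. These 4 of the 10 genes passed the test (adjusted p under 0.05 over all tested genes, two-sided limma on log2(FPKM + 1)), and 0 passed in the other direction. Of all tested genes 12.3% passed, 6.51% higher and 5.74% lower. Libraries of CAR ko and CAR wt did not overlap for 5 of the 10 genes, against 29.9% of all tested genes. The median log2 difference was 0.06 over the 10 genes and 0.01 over all tested genes.

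In PaS ko cells Ltbp2 alone of the 10 genes passed the test against PaS wt cells, and it was higher. Of all tested genes 7.44% passed in PaS cells, 3.41% higher and 4.03% lower. The libraries of PaS ko and PaS wt did not overlap for 7 of the 10 genes, against 23.4% of all tested genes. The median log2 difference was -0.12 over the 10 genes and 0.00 over all tested genes. An exact two-sided permutation test of 3 against 3 libraries cannot go below p = 0.1, and it gave 0.1 for each gene whose libraries did not overlap.

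**Figure D1:**
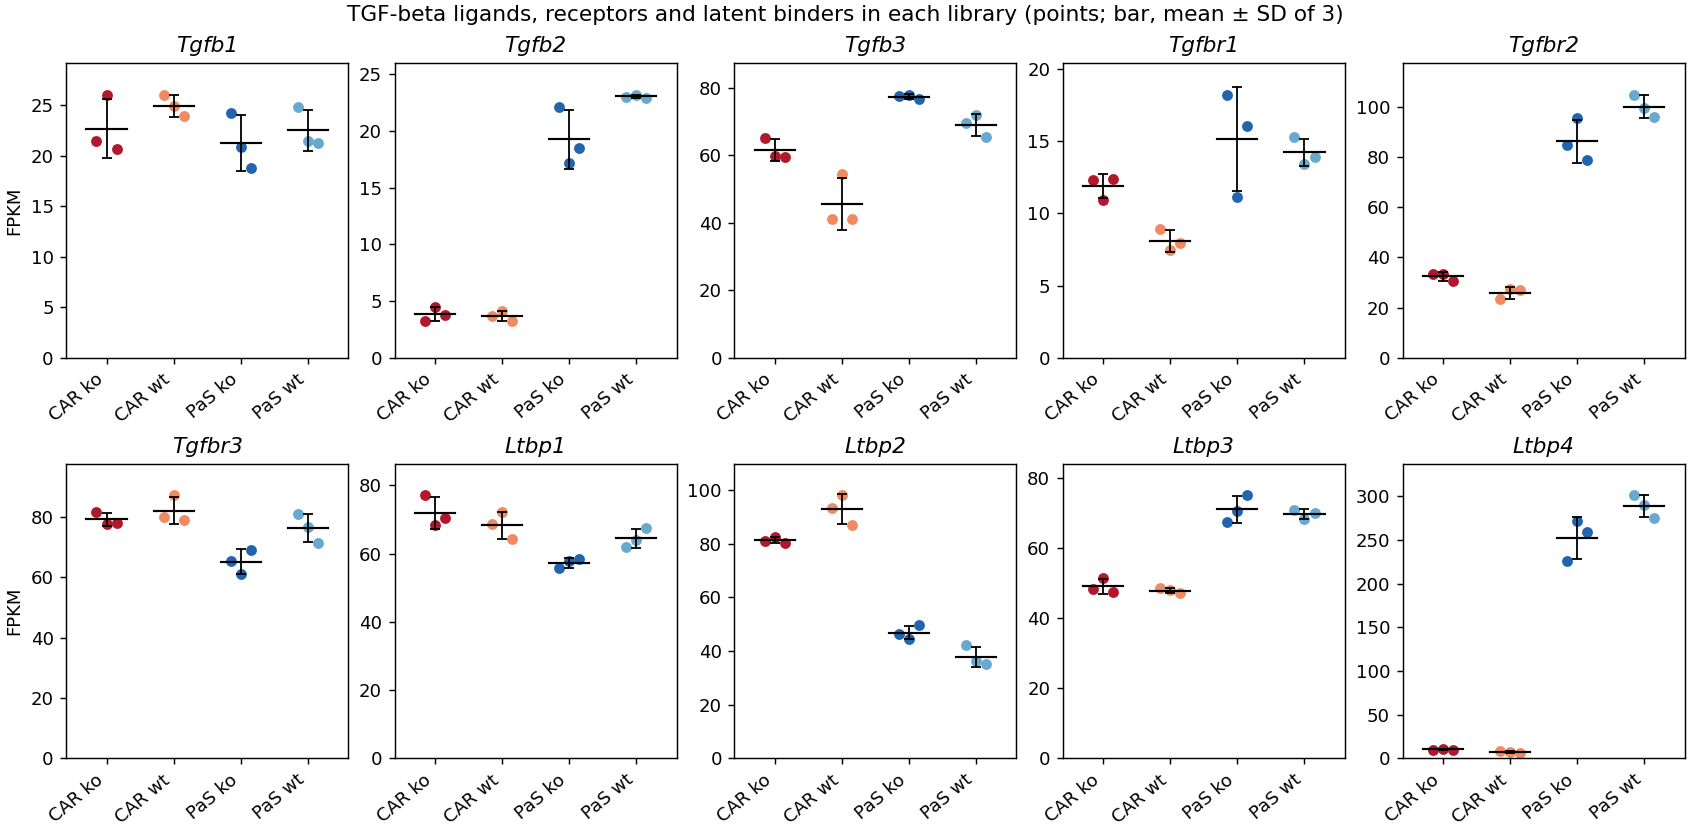
FPKM of the 10 genes in each of the 12 libraries, 1 panel a gene with its own linear axis starting at 0; points are libraries, and bars are the mean ± SD of 3. Ltbp4, Tgfb2 and Tgfbr2 are far lower in CAR than in PaS libraries, Ltbp2 is higher in CAR libraries, and the ko to wt gaps are small beside these.

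Tgfb3 was the most abundant of the 3 ligands in every library. It had 65.2, 59.96 and 59.6 FPKM in CAR ko, against 41.3, 54.5 and 41.2 FPKM in CAR wt libraries. In PaS ko libraries it had 77.5, 78.0 and 76.6 FPKM, against 69.5, 72.1 and 65.4 FPKM in PaS wt libraries. Neither pair of groups overlapped, and CAR wt replicate 2 was the closest of the CAR wt libraries to the CAR ko ones. Tgfb3 rose in CAR ko cells by 0.43 on the log2 scale (SE 0.09, 1.35-fold, adjusted p = 0.0056). This call held under all 10 other settings and with each of the 12 libraries left out, with adjusted p of 0.00017 to 0.042. Folds, here and below, are ratios of mean FPKM, whereas log2 differences are of log2(FPKM + 1), so they need not match. In PaS cells the log2 difference was 0.16 (SE 0.09, adjusted p = 0.37), and the difference between the effects, 0.27 (SE 0.13), had an adjusted p of 0.27. Without CAR wt replicate 2 that difference of effects was 0.40 (adjusted p = 0.026), the only 1 of 12 omissions at which it passed; over the 12 the adjusted p was 0.026 to 0.46.

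Tgfb1, the ligand most studied in bone matrix, was at nearly the same level everywhere. It had 21.4, 26.0 and 20.6 FPKM in CAR ko, against 26.1, 24.9 and 23.9 FPKM in CAR wt libraries. PaS ko libraries had 24.3, 20.9 and 18.8 FPKM, against 24.8, 21.5 and 21.2 FPKM in PaS wt libraries. All 4 groups overlapped, and the order of their means says nothing beyond their spread. The log2 difference was -0.14 in CAR cells (95% interval -0.37 to 0.10, adjusted p = 0.50) and -0.08 in PaS cells (interval -0.31 to 0.15, adjusted p = 0.76). Platelets and macrophages also make Tgfb1: the 9 megakaryocyte and platelet markers summed to 20.1, 283 and 24.0 FPKM in CAR ko, against 220, 194 and 491 FPKM in CAR wt libraries. CAR ko replicate 2 had the most of both platelet markers and Tgfb1 among the CAR ko libraries. CAR wt replicate 3 had the most platelet markers and the least Tgfb1 among the CAR wt libraries. In PaS cells these markers summed to 41.7 to 54.6 FPKM in ko and 366 to 435 FPKM in wt libraries. Tgfb1 averaged 21.3 ± 2.77 FPKM in PaS ko and 22.5 ± 1.99 FPKM in PaS wt libraries. The part of platelets and macrophages in the Tgfb1 values was not tested.

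Tgfb2 separated the populations. It had 3.27, 4.51 and 3.79 FPKM in CAR ko and 3.64, 4.17 and 3.24 FPKM in CAR wt libraries. Among PaS cells, ko libraries had 22.2, 17.2 and 18.5 FPKM, against 23.0, 23.2 and 22.9 FPKM in PaS wt libraries. Every CAR library was below every PaS library, and the PaS ko libraries lay just below the PaS wt ones. The CAR minus PaS log2 difference was -2.06 in ko (SE 0.13, adjusted p = 2.8e-09) and -2.37 in wt libraries (SE 0.13, adjusted p = 4.3e-10). By the ratio of mean FPKM, Tgfb2 was 4.997-fold lower in CAR ko than in PaS ko cells and 6.26-fold lower in CAR wt than in PaS wt cells. In neither population did Tgfb2 pass the genotype test, with log2 differences of 0.05 in CAR (adjusted p = 0.87) and -0.25 in PaS cells (95% interval -0.53 to 0.02, adjusted p = 0.31).

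Tgfbr1 had the lowest level of the 3 receptors. It had 12.3, 10.9 and 12.4 FPKM in CAR ko, against 8.91, 7.43 and 7.95 FPKM in CAR wt libraries. In PaS ko libraries it had 18.2, 11.1 and 16.0 FPKM, against 15.3, 13.4 and 13.9 FPKM in PaS wt libraries. The CAR groups did not overlap, whereas the PaS ko libraries spread to both sides of the PaS wt ones. Tgfbr1 rose in CAR ko cells by 0.50 (SE 0.14, 1.47-fold, adjusted p = 0.033). The call ended with no filter (adjusted p = 0.080) and without CAR wt replicate 2 or 3 or CAR ko replicate 1 or 3, with an adjusted p of 0.0068 to 0.107 over all omissions. The log2 difference in PaS cells was 0.06 (interval -0.25 to 0.37, adjusted p = 0.88), and the difference of effects, 0.44, had an adjusted p of 0.24. CAR wt cells had less Tgfbr1 than PaS wt cells, by a log2 difference of -0.74 (adjusted p = 0.00059). Between CAR ko and PaS ko cells the log2 difference was -0.30 (adjusted p = 0.12); without PaS ko replicate 2, the lowest PaS library, it was -0.49 (adjusted p = 0.0050, within a range of 0.0050 to 0.44).

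Tgfbr2 differed more by population than by genotype. It had 33.6, 33.4 and 30.5 FPKM in CAR ko, against 23.3, 27.5 and 27.1 FPKM in CAR wt libraries. PaS ko libraries had 84.7, 95.4 and 78.6 FPKM, against 104.8, 99.3 and 95.9 FPKM in PaS wt libraries. Neither pair of genotypes overlapped, and the ko libraries were the higher ones in CAR and the lower ones in PaS cells. Tgfbr2 rose in CAR ko cells by 0.32 (SE 0.09, 1.25-fold, adjusted p = 0.025), and in PaS cells its log2 difference was -0.22 (SE 0.09, adjusted p = 0.17). The 2 effects differed by 0.53 (SE 0.12, adjusted p = 0.016), which passed under each of the 9 other settings and 12 omissions (adjusted p of 0.0081 to 0.045). The CAR call alone ended with no filter (adjusted p = 0.051), when only the CAR groups were fitted (0.057), and without CAR wt replicate 1 (0.115), CAR ko replicate 1 (0.079) or CAR ko replicate 2 (0.084). Against PaS cells, Tgfbr2 in CAR cells was 2.65-fold lower in ko (log2 difference -1.38, adjusted p = 2.7e-09) and 3.85-fold lower in wt libraries (-1.91, adjusted p = 4.3e-11).

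Tgfbr3, the coreceptor, was abundant in all groups. It had 81.8, 77.9 and 78.1 FPKM in CAR ko and 80.0, 87.3 and 79.1 FPKM in CAR wt libraries. Among PaS cells, ko libraries had 65.5, 61.0 and 69.2 FPKM, against 81.0, 76.6 and 71.5 FPKM in PaS wt libraries. The CAR groups overlapped and the PaS groups did not, every PaS ko library being below every PaS wt one. The log2 difference was -0.05 in CAR (adjusted p = 0.74) and -0.22 in PaS cells (95% interval -0.37 to -0.07, adjusted p = 0.070), so neither passed over all tested genes. Tgfbr3 was higher in CAR ko than in PaS ko cells by 0.28 (SE 0.07, adjusted p = 0.0052), while between wt cells the log2 difference was 0.10 (adjusted p = 0.26).

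Ltbp4, a binder tied in mouse and human to elastic fibre assembly, showed the widest range of the 10 genes. It had 9.89, 11.2 and 9.82 FPKM in CAR ko, against 8.92, 7.61 and 6.17 FPKM in CAR wt libraries. In PaS ko libraries it had 225.8, 271.7 and 259.2 FPKM, against 301.0, 289.8 and 275.3 FPKM in PaS wt libraries. No pair of groups overlapped, with ko higher in CAR and lower in PaS cells. Ltbp4 was 24.5-fold lower in CAR ko than in PaS ko cells (log2 difference -4.48, adjusted p = 3.1e-14) and 38.1-fold lower in CAR wt than in PaS wt cells (-5.09, adjusted p = 5.0e-15). Between genotypes it rose in CAR ko cells by 0.41 (SE 0.11, 1.36-fold, adjusted p = 0.018) and had a log2 difference of -0.20 in PaS cells (SE 0.11, adjusted p = 0.34). The 2 effects differed by 0.61 (SE 0.15, adjusted p = 0.024). The CAR call ended with no filter (adjusted p = 0.059), with only the CAR groups fitted (0.11), and without CAR wt replicate 3 (0.083) or CAR ko replicate 2 (0.081). The difference of effects ended with no filter (0.073) and without CAR ko replicate 2 (0.060), PaS wt replicate 1 (0.061) or PaS ko replicate 1 (0.064).

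Ltbp2 binds fibrillin but, unlike the other binders, is known not to hold latent TGF-beta, and it ran the opposite way to Ltbp4. It had 80.9, 82.5 and 80.2 FPKM in CAR ko, against 93.3, 98.0 and 86.8 FPKM in CAR wt libraries. PaS ko libraries had 46.3, 44.6 and 49.5 FPKM, against 42.0, 36.4 and 34.96 FPKM in PaS wt libraries. No pair of groups overlapped, with ko lower in CAR and higher in PaS cells. Ltbp2 rose in PaS ko cells by 0.30 (SE 0.08, 1.24-fold, adjusted p = 0.023), and in CAR cells its log2 difference was -0.19 (95% interval -0.35 to -0.02, adjusted p = 0.14). The effects differed by -0.49 (SE 0.11, adjusted p = 0.013), which passed under each of the 9 other settings and 12 omissions (adjusted p of 0.0051 to 0.038). The PaS call ended when only the PaS groups were fitted (adjusted p = 0.076) and without PaS wt replicate 2 or 3 or PaS ko replicate 1 or 3 (0.057 to 0.104, within 0.0079 to 0.104 over all omissions). Ltbp2 was the only 1 of the 10 genes to pass the test as higher in CAR wt than in PaS wt cells, by 1.27 (SE 0.08, 2.45-fold, adjusted p = 1.6e-09), and it was higher in CAR ko than in PaS ko cells by 0.78 (SE 0.08, 1.74-fold, adjusted p = 6.5e-07).

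Ltbp1, the classic partner of latent TGF-beta, had 77.1, 68.3 and 70.4 FPKM in CAR ko and 68.6, 72.2 and 64.3 FPKM in CAR wt libraries. Among PaS cells, ko libraries had 55.7, 57.7 and 58.3 FPKM, against 61.9, 64.1 and 67.5 FPKM in PaS wt libraries. The CAR groups overlapped and the PaS groups did not. Ltbp1 did not pass in CAR (log2 difference 0.07, adjusted p = 0.58) or in PaS cells (-0.17, interval -0.32 to -0.02, adjusted p = 0.19). It was higher in CAR ko than in PaS ko cells by 0.32 (SE 0.07, adjusted p = 0.0016), and between wt cells the log2 difference was 0.08 (adjusted p = 0.37).

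Ltbp3, whose loss in mice disturbs bone growth, had 48.1, 51.5 and 47.5 FPKM in CAR ko and 48.6, 47.9 and 47.0 FPKM in CAR wt libraries. PaS ko libraries had 67.3, 70.6 and 75.0 FPKM, and 70.7, 68.2 and 70.0 FPKM in PaS wt libraries. Both pairs of genotypes overlapped, and every CAR library was below every PaS library. The log2 difference between genotypes was 0.04 in CAR (interval -0.10 to 0.17, adjusted p = 0.80) and 0.03 in PaS cells (interval -0.11 to 0.16, adjusted p = 0.88). Between populations Ltbp3 was lower in CAR cells, by -0.52 in ko (adjusted p = 7.7e-06) and -0.53 in wt libraries (adjusted p = 5.7e-06).

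**Figure D2:**
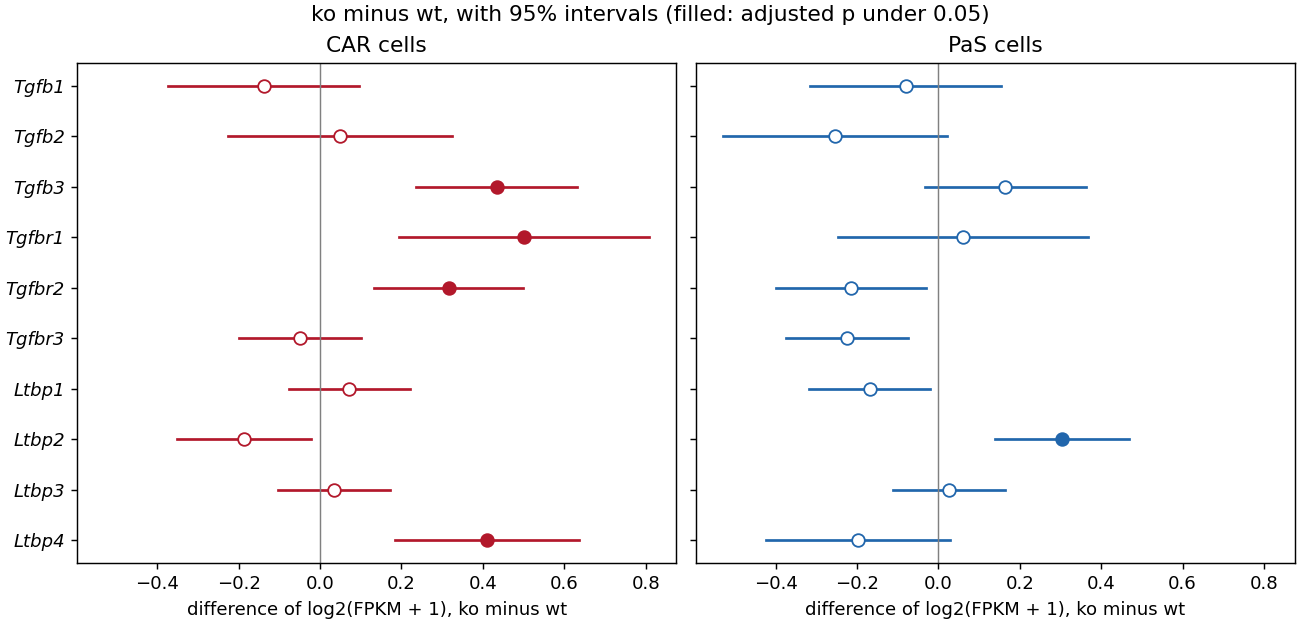
Difference of log2(FPKM + 1), ko minus wt, for each gene in CAR cells (left) and PaS cells (right); points are limma estimates from 3 against 3 libraries, bars are 95% intervals, and filled points have an adjusted p under 0.05. Tgfb3, Tgfbr1, Tgfbr2 and Ltbp4 are filled on the CAR side, at 0.32 to 0.50, and Ltbp2 alone is filled on the PaS side, at 0.30.

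The genotype effect was tested for a difference between the populations, and 3 of the 10 genes passed: Tgfbr2 at 0.53, Ltbp4 at 0.61 and Ltbp2 at -0.49. Of all tested genes 6.58% passed, 3.32% with a positive and 3.26% with a negative difference. The effect was 0.32 in CAR and -0.22 in PaS cells for Tgfbr2, 0.41 and -0.20 for Ltbp4, and -0.19 and 0.30 for Ltbp2, so that within each gene only the effect in 1 population passed on its own. For each of these 3 genes neither pair of genotypes overlapped, which restates the values that the test used and is no added support. Of all tested genes 29.9% did not overlap between genotypes in CAR and 23.4% in PaS cells. The share that did so in both was not computed. The CAR minus PaS difference of each was also smaller in size between ko than between wt cells, which is the same quantity, since these contrasts share their libraries.

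Between populations, CAR wt cells differed from PaS wt cells in 7 of the 10 genes, 1 higher and 6 lower, where 43.2% of all tested genes passed, 20.5% higher and 22.7% lower. Lower in CAR wt cells were Ltbp4, Tgfb2, Tgfbr2, Tgfbr1, Tgfb3 and Ltbp3, in order of size, and Ltbp2 was higher. Between CAR ko and PaS ko cells 8 of the 10 genes passed, 3 higher (Ltbp2, Ltbp1 and Tgfbr3) and 5 lower, where 36.9% of all tested genes passed, 17% higher and 19.8% lower. The libraries did not overlap for 8 genes between ko cells and for 7 between wt cells, against 47.9% and 51.2% of all tested genes. The median log2 difference of the 10 genes was -0.31 between ko and -0.56 between wt cells, and over all tested genes it was 0.00 in both. These are comparisons of sorted bulk RNA, in which fewer expressing cells and less RNA per cell cannot be told apart.

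**Figure D3:**
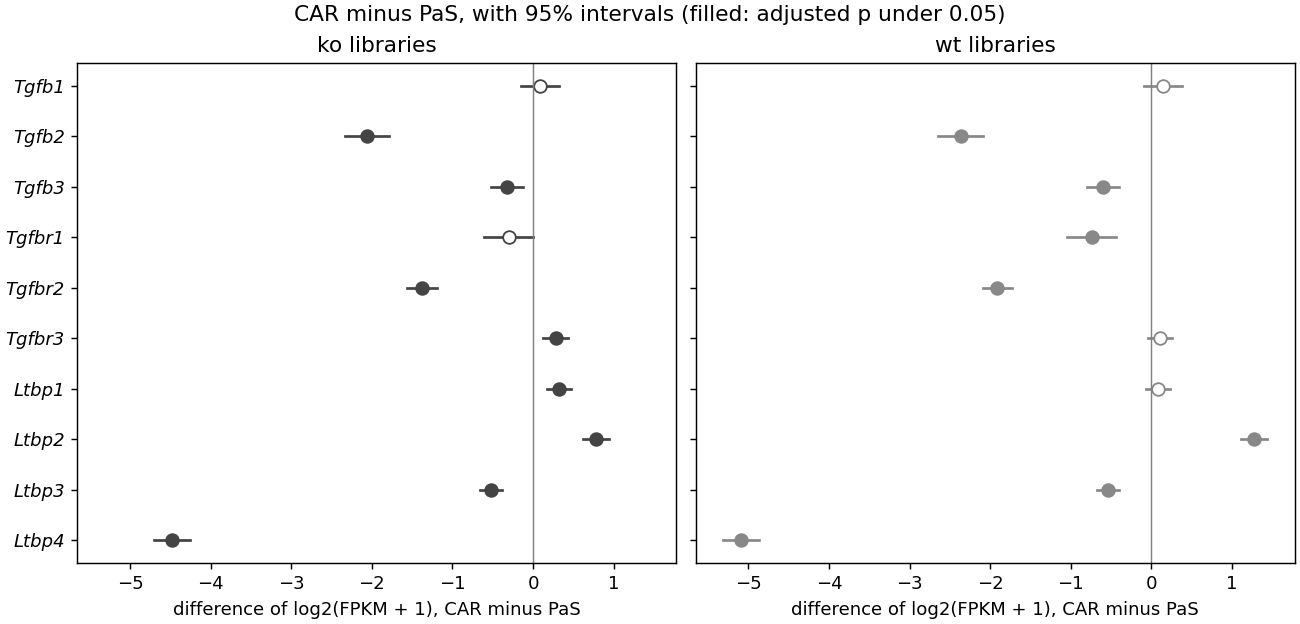
Difference of log2(FPKM + 1), CAR minus PaS, for each gene in ko libraries (left) and wt libraries (right); points are limma estimates from 3 against 3 libraries, bars are 95% intervals, and filled points have an adjusted p under 0.05. Ltbp4 stands at -4.48 in ko and -5.09 in wt libraries, and Ltbp2 is on the positive side in both.

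The families had a different make-up in CAR and PaS cells. The ligands summed to 88.1 ± 3.57 FPKM in CAR ko, 74.3 ± 8.16 in CAR wt, 118 ± 5.31 in PaS ko and 115 ± 4.33 in PaS wt libraries (SD, n = 3 each). Tgfb3 made up 69.9% ± 3.25 of the ligand sum in CAR ko, 61.2% ± 3.62 in CAR wt, 65.7% ± 2.72 in PaS ko and 60.2% ± 1.33 in PaS wt libraries. Tgfb2 made up 4.38% ± 0.685 in CAR ko, 4.95% ± 0.202 in CAR wt, 16.3% ± 1.53 in PaS ko and 20.1% ± 0.679 in PaS wt libraries. Tgfb3 was thus the main ligand of both populations, and Tgfb2 a minor one in CAR cells.

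The binders summed to 213 ± 4.16 FPKM in CAR ko, 216 ± 10.98 in CAR wt, 427 ± 27.9 in PaS ko and 461 ± 14.05 in PaS wt libraries. Ltbp4 made up 4.85% ± 0.360 of that sum in CAR ko, 3.49% ± 0.531 in CAR wt, 59.0% ± 1.99 in PaS ko and 62.7% ± 1.02 in PaS wt libraries. Ltbp2 made up 38.2% ± 0.670 in CAR ko, 42.8% ± 0.530 in CAR wt, 10.98% ± 0.862 in PaS ko and 8.20% ± 0.560 in PaS wt libraries. The largest part of the sum was therefore Ltbp2 in CAR cells and Ltbp4 in PaS cells. Ltbp2, as said above, is known not to hold latent TGF-beta. Among the other binders Ltbp1 was the highest in CAR cells, at 71.9 FPKM on average in CAR ko and 68.4 FPKM in CAR wt libraries. Among the receptors, Tgfbr2 made up 26.3% ± 1.06 of the sum in CAR ko, 22.3% ± 1.51 in CAR wt, 51.7% ± 4.65 in PaS ko and 52.5% ± 0.372 in PaS wt libraries, and in CAR cells the leading receptor was Tgfbr3, at 64.1% ± 0.404 in ko and 70.7% ± 1.195 in wt libraries.

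**Figure D4:**
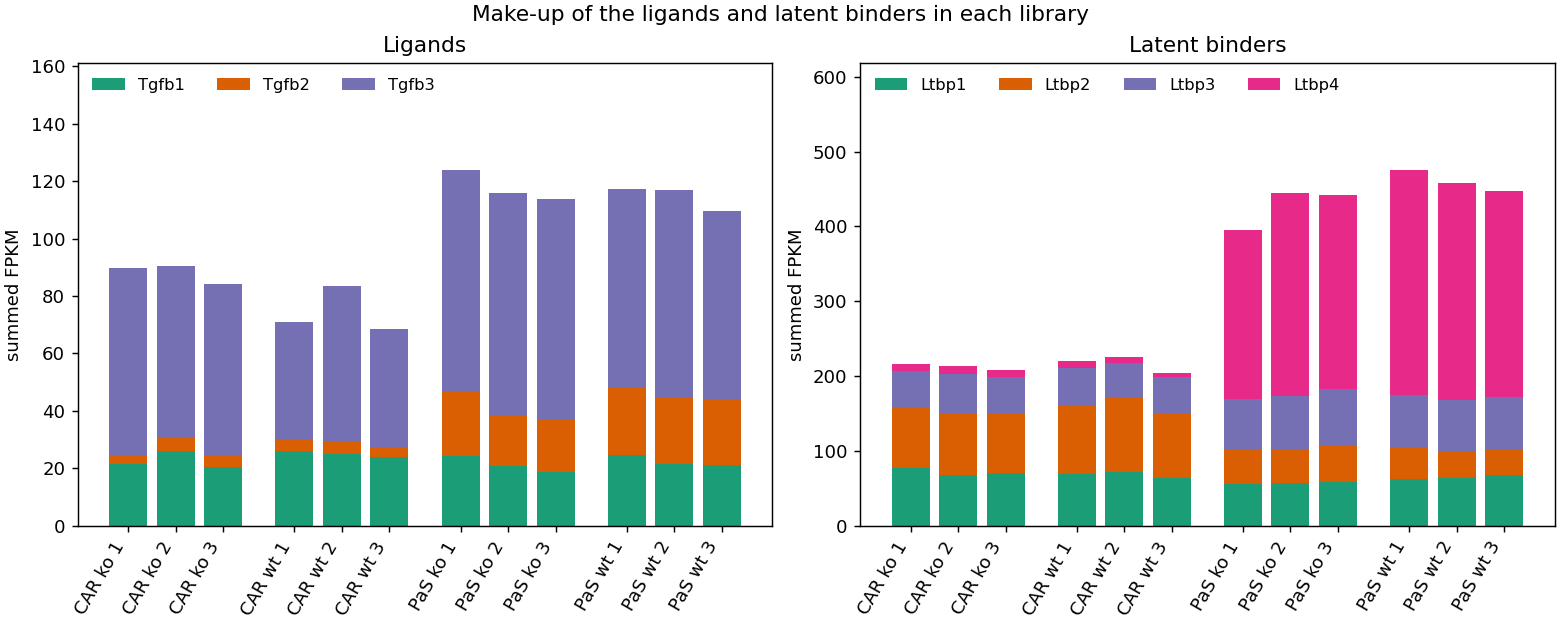
Summed FPKM of the ligands (left) and of the latent binders (right) in each of the 12 libraries, on linear axes starting at 0, with the part of each gene stacked in colour. Ltbp4 fills 59.0% of the binder bar on average in PaS ko and 62.7% in PaS wt libraries, and 4.85% in CAR ko and 3.49% in CAR wt libraries. The binder bars include Ltbp2, which is known not to hold latent TGF-beta.

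For the 4 genes whose group means spanned at least 1 log2 unit, the 3 genes closest in pattern over the 12 libraries were found among 6142 tested genes of at least 10 FPKM on average, by the root mean square difference of log2(FPKM + 1) after centring each gene. Nearest to Ltbp2 was Bmp4, a secreted growth factor of the TGF-beta superfamily, to which Ltbp2 itself does not belong, at a difference of 0.09. Bmp4 averaged 79.8 FPKM in CAR ko, 92.7 in CAR wt, 45.6 in PaS ko and 37.9 in PaS wt libraries, and Ltbp2 averaged 81.2 FPKM in CAR ko, 92.7 in CAR wt, 46.8 in PaS ko and 37.8 in PaS wt libraries. Lfng and Net1 followed, at 0.10 and 0.11. Nearest to Ltbp4 were Igfbp6, an insulin-like growth factor binding protein, at 0.20, Fbln2, a matrix fibulin, at 0.20, and Myoc at 0.23. Tgfbr2 was nearest to Ptrf, a caveola protein, at 0.10, followed by Gem at 0.11 and Fam129a at 0.12. Tgfb2 was nearest to Rhoj, a small GTPase, at 0.13, to Htra3, a secreted serine protease, at 0.14, and to S100a6 at 0.16. Between-population differences dominate these 4 patterns.

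Beyond the 10 genes, 4 lists of pathway genes were read in the same fit. Among genes that process or activate the latent complex, 6 of 13 tested were higher and 1 lower in CAR ko cells, against 6.51% higher and 5.74% lower of all tested genes, with a median log2 difference of 0.21 where that of all tested genes was 0.01. Thbs1, thrombospondin 1, which can activate latent TGF-beta, averaged 211 ± 14.8 FPKM in CAR ko and 112 ± 6.93 FPKM in CAR wt cells (0.91, adjusted p = 9.8e-07). The gelatinase Mmp2 averaged 302 ± 15.3 FPKM in CAR ko and 183 ± 6.65 FPKM in CAR wt cells (0.72, adjusted p = 3.1e-07). The integrin chain Itgb5 rose by 0.49 (adjusted p = 2.9e-05) and Bmp1, a protease that cleaves Ltbp1, by 0.42 (adjusted p = 0.00039); Plat, at 0.49, and Itgb1, at 0.21, were the other 2. The 1 lower gene was Mmp9, a neutrophil protease as well as a stromal one, at -0.67. The 10 neutrophil markers were all lower in CAR ko libraries, with sums of 4670 to 5287 FPKM in CAR ko and 10338 to 11908 FPKM in CAR wt libraries; their part in the Mmp9 value was not tested.

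In PaS ko cells 0 of the same 13 genes were higher and 4 were lower, against 3.41% higher and 4.03% lower of all tested genes, with a median of -0.05. The urokinase gene Plau averaged 0.816 ± 0.299 FPKM in PaS ko and 3.69 ± 0.391 FPKM in PaS wt cells (-1.38, adjusted p = 9.7e-05). Itgb3, an integrin chain of platelets as well as of stroma, averaged 8.17 ± 0.272 FPKM in PaS ko and 15.6 ± 1.35 FPKM in PaS wt cells (-0.85, adjusted p = 0.0011). Mmp9 had a log2 difference of -0.71 (adjusted p = 0.0017), and Itgb8, the chain of an integrin that activates TGF-beta, had 0.482 ± 0.0551 FPKM in PaS ko and 1.32 ± 0.337 FPKM in PaS wt cells (-0.64, adjusted p = 0.033). Plau and Itgb8 reached 1 FPKM in at least 3 libraries only with the PaS wt libraries, where they were highest. Itgb8 had 1.09 to 1.70 FPKM there and at most 0.543 FPKM in PaS ko libraries. The calls of Plau and Itgb8 as lower are therefore tied to the filter and are given as values only. Beside these, the 9 megakaryocyte and platelet markers (6 lower, 0 higher) summed to 41.7 to 54.6 FPKM in PaS ko and 366 to 435 FPKM in PaS wt libraries. The 10 neutrophil markers (10 lower) summed to 6975 to 7150 FPKM in PaS ko and 22479 to 25199 FPKM in PaS wt libraries. The part of blood-cell RNA in the Itgb3 and Mmp9 values was not tested.

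Among matrix anchors and extracellular modulators, 5 of 14 were higher and 1 lower in CAR ko cells (6.51% and 5.74% of all tested genes), with a median of 0.19. Cd109, a TGF-beta coreceptor that dampens signalling, had 10.1 ± 0.498 FPKM in CAR ko and 3.996 ± 0.167 FPKM in CAR wt cells (1.15, adjusted p = 3.8e-07). Fibronectin, Fn1, to which binders attach, had 103 ± 17.5 FPKM in CAR ko and 56.9 ± 9.96 FPKM in CAR wt cells (0.84, adjusted p = 0.00021). The small proteoglycans Dcn and Fmod, which bind TGF-beta, rose by 0.79 (adjusted p = 3.2e-07) and 0.68 (adjusted p = 2.0e-06), and Nrros, which holds latent Tgfb1 on macrophages, fell by 1.04. In PaS ko cells 4 of the 14 were higher and 2 lower (3.41% and 4.03% of all tested genes), with a median of -0.15. Fmod rose there by 0.86 (adjusted p = 1.8e-07) and Emilin1, which keeps TGF-beta precursors unprocessed, by 0.30 (adjusted p = 0.014). Lower in PaS ko cells were fibrillin 1, Fbn1, with 58.6 ± 1.85 FPKM against 90.7 ± 2.03 FPKM in PaS wt cells (-0.62, adjusted p = 9.8e-05), and Fn1, with 823 ± 11.4 FPKM against 1192 ± 56.0 FPKM (-0.53, adjusted p = 0.0098). The effect on Fn1 differed between the populations by 1.37 and that on Cd109 by 1.304, both past the test.

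Among coreceptors, Smads and intracellular regulators, 1 of 20 was higher and 0 lower in CAR ko cells, and 2 were higher and 0 lower in PaS ko cells, with medians of -0.02 and -0.14. Of all tested genes 12.3% passed in CAR and 7.44% in PaS cells. Bambi, a decoy receptor without a kinase, averaged 49.0 ± 2.14 FPKM in CAR ko and 31.4 ± 2.13 FPKM in CAR wt cells (0.63, adjusted p = 0.00070), and 19.1 ± 0.713 FPKM in PaS ko and 13.6 ± 2.17 FPKM in PaS wt cells (0.47, adjusted p = 0.0087). Pmepa1, a Smad-binding inhibitor induced by TGF-beta, averaged 57.1 ± 3.17 FPKM in PaS ko and 46.2 ± 1.11 FPKM in PaS wt cells (0.30, adjusted p = 0.013). The next closest in CAR cells, Skil at 0.32 (adjusted p = 0.069), Smad3 at 0.29 (adjusted p = 0.24) and Ski at -0.17 (adjusted p = 0.27), did not pass. In PaS cells Smurf2 at -0.31 (adjusted p = 0.11) and Ski at -0.25 (adjusted p = 0.13) did not pass either.

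Of genes known to be induced by TGF-beta, 27 of 28 were tested, and 9 were higher and 1 lower in CAR ko cells (median 0.20), while 9 were higher and 0 lower in PaS ko cells (median 0.07). Over all tested genes 6.51% were higher and 5.74% lower in CAR ko cells, and 3.41% higher and 4.03% lower in PaS ko cells. In CAR ko cells Postn, or periostin, rose by 1.36 (adjusted p = 4.9e-10), Cthrc1, a collagen triple helix protein, by 0.75 (adjusted p = 3.5e-06), Comp by 0.57 (adjusted p = 1.4e-05) and the collagen crosslinker Lox by 0.46 (adjusted p = 0.00011). The 1 lower gene was Col1a1, at -8.28, which was listed at 0 in 2 CAR ko libraries while the third had 4677 FPKM, so that its difference is not read as a change. In PaS ko cells Cthrc1 averaged 57.8 ± 1.53 FPKM, against 35.02 ± 0.313 FPKM in PaS wt cells (0.71, adjusted p = 7.8e-06). Tagln, a smooth muscle actin-binding protein, had 8.48 ± 0.394 FPKM in PaS ko and 3.88 ± 0.386 FPKM in PaS wt cells (0.96, adjusted p = 0.00053). Scx, a transcription factor of tendon, rose there by 1.26 (adjusted p = 0.0013) and Lox by 0.38 (adjusted p = 0.00077). Many of these genes are also made by bone-forming cells, and the 9 osteoblast markers (8 higher in CAR, 7 in PaS) summed to 36211 to 44398 FPKM in CAR ko and 23043 to 24611 FPKM in CAR wt libraries, and to 4576 to 5041 FPKM in PaS ko and 2906 to 3230 FPKM in PaS wt libraries. Their part in these values was not tested.

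**Figure D5:**
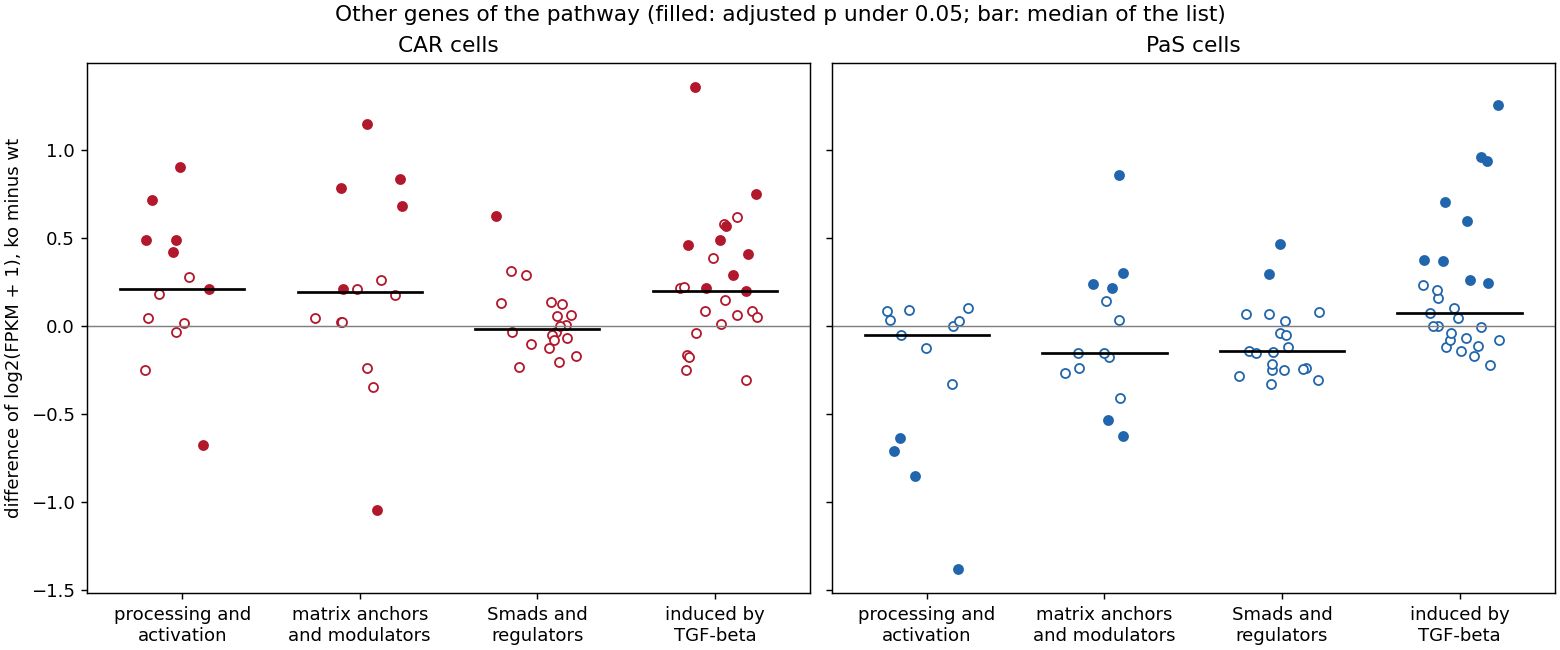
Difference of log2(FPKM + 1), ko minus wt, of each tested gene of the 4 pathway lists in CAR cells (left) and PaS cells (right); filled points have an adjusted p under 0.05 and the bar is the median of the list. Col1a1 at -8.28 and Col1a2 at -4.07 in CAR cells lie below the axis, where Col1a1 is listed at 0 in 2 CAR ko libraries and Col1a2 in 1; the Smad list holds 1 filled point in CAR and 2 in PaS cells.

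Between the wt populations the lists of processing genes and of matrix genes had more members lower than higher in CAR cells, where 20.5% of all tested genes were higher and 22.7% lower. Of the 13 processing and activation genes 1 was higher and 8 lower in CAR wt than in PaS wt cells (median -0.51), with Mmp2 at 183 ± 6.65 FPKM in CAR wt and 885 ± 19.7 FPKM in PaS wt cells, Plat at -2.37, Plau at -2.15 and Thbs1 higher by 0.88. Plau and Itgb8, both among the 8 lower, met the filter only with the PaS wt libraries, so their calls here are tied to the filter as well. In the lists that follow, Fbn2 reached 1 FPKM only in CAR libraries and Il11 only in PaS libraries. Any call of these between the populations is likewise tied to the filter. Of the 14 matrix anchors and modulators 3 were higher and 9 lower (median -0.94), with Fn1 at 56.9 ± 9.96 FPKM in CAR wt and 1192 ± 56.0 FPKM in PaS wt cells, Aspn at -2.94, Dcn at -2.86 and Htra3 at -2.33. Of the 20 Smads and regulators 4 were higher and 8 lower (median -0.08), with Tgif2 at 1.32, Bambi at 1.16, Ski at -0.87 and Pmepa1 at -0.68. Of the 27 induced genes 10 were higher and 11 lower (median -0.18), with Tgfbi at -3.57, Col3a1 at -3.31, Timp3 at -2.13 and Tpm1 at 1.89. All values named in this paragraph had an adjusted p of 2.9e-06 or lower.

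Markers of other cell types differed in level with genotype and population, although CD45+, CD31+ and Lin+ cells had been gated out. The 10 monocyte and macrophage markers, whose cells make Tgfb1 and Tgfbr1, summed to 198 to 216 FPKM in CAR ko, 410 to 525 in CAR wt, 857 to 966 in PaS ko and 1188 to 1267 in PaS wt libraries. Of these 10 markers 0 were higher and 4 lower in CAR ko cells, and 6 were higher and 1 lower in PaS ko cells. For this and the next list, 6.51% of all tested genes were higher and 5.74% lower in CAR ko cells. The shares in PaS ko cells were 3.41% higher and 4.03% lower. Lyz2, which neutrophils also express, made up the largest share of the sum, at 432 ± 11.5 FPKM in PaS ko and 1019 ± 19.6 FPKM in PaS wt cells. C1qa, a marker of macrophages, went the other way, at 87.7 ± 11.6 FPKM in PaS ko and 36.3 ± 3.42 FPKM in PaS wt cells. The 11 endothelial markers, whose cells express Tgfbr2, summed to 20.6 to 24.6 FPKM in CAR ko, 14.5 to 15.5 in CAR wt, 73.7 to 79.9 in PaS ko and 80.8 to 94.9 in PaS wt libraries, with 2 higher and 0 lower in CAR ko and 0 higher and 1 lower in PaS ko cells. No marker of these 2 lists was at 0 in all libraries of a group. Pecam1, which encodes the gated CD31, averaged 1.79 ± 0.329 FPKM in CAR ko, 1.67 ± 0.349 in CAR wt, 4.75 ± 0.756 in PaS ko and 5.67 ± 0.429 in PaS wt libraries. The endothelial sums lay in the same order over the 4 groups as Tgfbr2, and the part of these cells, which the CD31- gate would remove, was not tested. The 9 platelet markers in CAR ko replicate 2, at 283 FPKM, stood apart from the other 2 CAR ko libraries, and without it 2 of the 4 calls in CAR cells ended. Tgfb3, at 0.45 (adjusted p = 0.015), and Tgfbr1, at 0.56 (adjusted p = 0.049), still passed, and Tgfbr2, at 0.30 (adjusted p = 0.084), and Ltbp4, at 0.35 (adjusted p = 0.081), did not. Leaving out CAR ko replicate 1, with 20.1 FPKM of platelet markers, or CAR wt replicate 3, with 491 FPKM, also left 2 of the 4 calls. Without PaS wt replicate 1, the library with fewer genes at 0, Ltbp2 kept a log2 difference of 0.38 in PaS cells (adjusted p = 0.0079).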

How the data were processed

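RNA was measured in 12 libraries, 3 in each of the groups CAR ko, CAR wt, PaS ko and PaS wt. The values deposited by the authors are FPKM by gene symbol, in a separate table for each library, per the file headers. Per the labels' protocols, mRNA was enriched with oligo dT before SMART-Seq v4 library preparation; per the submitters' processing notes, TopHat2 2.0.14, Cufflinks 2.2.1, Cuffnorm 2.2.1 and Cuffdiff were used on mm10. The annotation, strand setting and filters are not given in the sources used here. No counts were given, so the depth is unknown and no interval rests on it; the number of libraries limits the precision. Where replicates are not separate animals, p-values measure technical spread only.

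Values were tested as log2(FPKM + 1), which understates changes of low genes, with limma 3.58.1 in R 4.3.3 (4-group model, eBayes with a trend, 8 residual degrees of freedom) over the 12938 genes with at least 1 FPKM in at least 3 libraries, with Benjamini-Hochberg adjustment over all of them and 5 contrasts. Errors are SDs of 3 libraries beside FPKM and SEs beside log2 differences. Named genes were the 10 members, Ebf1 and up to 4 genes of each pathway list with the smallest p per contrast. The 3 nearest patterns of each member spanning at least 1 log2 unit were named too. Nrros, Plat and Itgb1 in CAR cells, Col1a1, Col1a2, Lyz2, C1qa, Pecam1 and the Mmp9 value in CAR cells were named after their values were seen. So were the values of Cxcl12 and Pdgfra, and the Fn1 and Cd109 differences of effects. The members, the 4 pathway lists and the 12 marker lists were chosen with earlier results of these data known. Alternatives were pseudocounts of 0.1 and 5, a filter of 5 FPKM or none, library weights, quantile normalization, median-ratio scaling, zeros beside 100 FPKM or more set to missing, the replicate number as a covariate, only the compared groups, and leaving out each library. The 8 ATAC-seq samples were not used here.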

Additional observations from a re-analysis of the deposited data

Results flagged for a closer look

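For 3 genes the genotype effect differed between CAR and PaS cells in a test of the difference itself (limma, CAR effect minus PaS effect, 12 libraries). For Tgfbr2, the type II receptor, the effects differed by 0.53 on the log2 scale (adjusted p = 0.016), with all 3 ko libraries above the wt libraries in CAR cells and all 3 below them in PaS cells. For Ltbp4 they differed by 0.61 (adjusted p = 0.024), with the libraries ordered in the same way; this call, unlike those of Tgfbr2 and Ltbp2, ended with no filter (adjusted p = 0.073) and without CAR ko replicate 2, PaS wt replicate 1 or PaS ko replicate 1 (0.060 to 0.064). For Ltbp2 they differed by -0.49 (adjusted p = 0.013), with all 3 ko libraries below the wt libraries in CAR cells and all 3 above them in PaS cells. Of all tested genes 6.58% passed this test. The order of the libraries restates the values that the test used and is no added support.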

How the results depend on the processing

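Genes passing in the CAR genotype comparison among the 10 numbered 4, but 1 with no filter, where 19661 genes were tested, and 2 when only the CAR groups were fitted; leaving out 1 library gave 2 to 4. In PaS cells the 1 gene became 0 when only the PaS groups were fitted, and 0 to 1 with a library left out. The difference of effects passed for 2 to 4 genes with a library left out, the wt population comparison for 7 to 7 and the ko one for 8 to 9. Over all tested genes, omissions gave 1128 to 1696 calls in CAR cells (1585 with all libraries), 735 to 986 in PaS cells (962), 644 to 760 for the difference of effects (851), 5011 to 5620 between wt (5590) and 4156 to 4902 between ko populations (4769).

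The replicate number as a block left 4, 1, 3, 7 and 8 of the 10 genes passing in the CAR, PaS, difference, wt population and ko population comparisons, and 1585, 961, 839, 5568 and 4785 of all genes. Same-numbered ko and wt libraries of the same population deviated together with correlations of -0.033 to 0.108. CAR and PaS libraries of the same number were not compared, so these values cannot show whether the numbers pair libraries.

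Signs turned only for log2 differences near 0 that did not pass, given here with their range over the 12 omissions. In CAR cells Tgfb2 was -0.020 without CAR wt replicate 3 and -0.046 without CAR ko replicate 2 (-0.046 to 0.14), and Ltbp3 -8.5e-07 without CAR ko replicate 2 (up to 0.057). In PaS cells Tgfb1 was 0.0034 (from -0.17) and Ltbp3 -0.014 (up to 0.063) without PaS ko replicate 3, and Tgfbr1 -0.078 (up to 0.25) without PaS ko replicate 1. The difference of effects for Tgfb1 was 0.0042 without CAR ko replicate 3 and 0.036 without PaS ko replicate 1 (-0.16 to 0.036). For Ltbp3 it was -0.0088 under quantile normalization, -0.0010 with library weights, and -0.0028, -0.026, -0.0022 and -0.028 without CAR wt replicate 3, CAR ko replicate 2, PaS wt replicate 1 and PaS ko replicate 1 (-0.028 to 0.049). Between ko populations Tgfb1 was -0.010 without CAR ko replicate 2 (up to 0.18). Of the values under omissions 569 kept their direction and side of the threshold, 16 lost and 2 gained a call and 13 turned sign; of those under other settings 481 kept both, 7 lost a call and 2 turned sign. The cause of these changes was not tested. No counts were available, so the depth behind low values such as Tgfb2 in CAR cells is unknown.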

Other observations

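Further lists of cell type markers are given as values. Of all tested genes 6.51% were higher and 5.74% lower in CAR ko cells, and 3.41% higher and 4.03% lower in PaS ko cells. All 6 basophil and mast cell markers summed to 96.6 to 130 FPKM in CAR ko and 29.9 to 34.1 FPKM in CAR wt libraries. In PaS cells they summed to 16.7 to 19.7 FPKM in ko and 84.0 to 86.6 FPKM in wt libraries. Of the 5 that were tested, 3 were higher and 1 lower in CAR ko cells, and 0 higher and 4 lower in PaS ko cells. The erythroid markers (8 tested) summed to 1760 to 2158 FPKM in CAR ko, 3317 to 3847 in CAR wt, 3574 to 3920 in PaS ko and 3085 to 3787 in PaS wt libraries, with 7 lower in CAR ko and 5 higher in PaS ko cells. All 10 lymphoid and pan-leukocyte markers summed to 32.0 to 40.04 FPKM in CAR ko and 102 to 105 FPKM in CAR wt libraries. In PaS cells they summed to 128 to 145 FPKM in ko and 115 to 131 FPKM in wt libraries. Of the 7 that were tested, 7 were lower in CAR ko and 1 was higher in PaS ko cells.

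The chondrocyte markers (9 tested) had 3 higher and 4 lower in CAR ko cells and 7 higher and 0 lower in PaS ko cells, with sums of 1053 to 1164 FPKM in CAR ko, 1016 to 1144 in CAR wt, 1937 to 2139 in PaS ko and 1531 to 1691 in PaS wt libraries. The pericyte and smooth muscle markers (9 tested), which include Acta2, also on the list of induced genes, had 1 higher and 1 lower in CAR ko and 2 higher and 0 lower in PaS ko cells, with sums of 39.9 to 48.1 FPKM in CAR ko, 45.3 to 48.5 in CAR wt, 56.6 to 62.0 in PaS ko and 43.8 to 46.8 in PaS wt libraries. Of the 7 CAR markers 0 were higher and 3 lower in CAR ko and 0 higher and 1 lower in PaS ko cells, and of the 8 PaS markers 2 were higher and 2 lower in CAR ko and 0 higher and 4 lower in PaS ko cells. Beside these counts stand the shares over all tested genes, 6.51% higher and 5.74% lower in CAR ko cells. In PaS ko cells the shares were 3.41% higher and 4.03% lower. The part of the marked cell types in the values of the TGF-beta genes was not tested.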
